A study of Sus scrofa with 24 samples.

Results

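Insulin-like growth factor 2, encoded by IGF2, was read by 14 of the 47845 probe sets of the Affymetrix Snowball pig array, a microarray on which each probe set is a group of short probes summarized to 1 value. The 14 are all probe sets to which the platform annotation gives the symbol IGF2, a rule that uses no measured value. It was set with earlier results of these data known. The 14 probe sets were described over the livers of 24 fetuses at 63 dpc (days post conception) from an F2 cross of German Landrace (DL) and Pietrain (Pi), 1 array per fetus. The labels tell the livers apart by the number of the fetus alone and do not map growth group, dam or sex to the arrays, so growth-restricted fetuses and their littermates of normal weight are not compared here, and each value is given as a range and median over all livers. Some of the fetuses were littermates, and the p-values treat their livers as independent. Levels are log2 values made by the authors with RMA (robust multi-array average), which corrects background, makes the distributions of probe signals alike between arrays and summarizes each probe set.

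IGF2 is a secreted peptide hormone and a main growth factor of fetal life. It acts mainly through the IGF1 receptor and an insulin receptor isoform, is carried in plasma by the IGF binding proteins, and is taken up for degradation by the IGF2 receptor. In the fetus the liver is a rich source. The gene is imprinted, with expression mainly from the paternal copy in most fetal tissues, and it is transcribed from several promoters into transcripts that differ in their untranslated exons. The RefSeq annotation of the pig assembly Sscrofa11.1 lists 17 IGF2 transcripts. Which of these each probe set reads was not examined, since probe sequences were not used here.

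Most IGF2 probe sets gave strong signals in every liver, but the 14 disagreed widely on the level. Their means lay between 3.72 and 13.71, a difference of 9.98 log2 units between probe sets for the same gene symbol. A probe set counted as above the signal limit when 18 or more of the 24 arrays gave it a level of 6 or higher, and 12 of the 14 were. Across the array 5868 probe sets passed this limit. The 95th percentile of the background control probe sets lay between 6.52 and 6.89 on the different arrays, and 11 IGF2 probe sets were above it on all 24. Array medians over all probe sets lay between 2.81 and 2.89. Since probe sets differ in how strongly they bind, the order of their levels is an order of signals, not of transcript amounts.

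**Figure D1:**
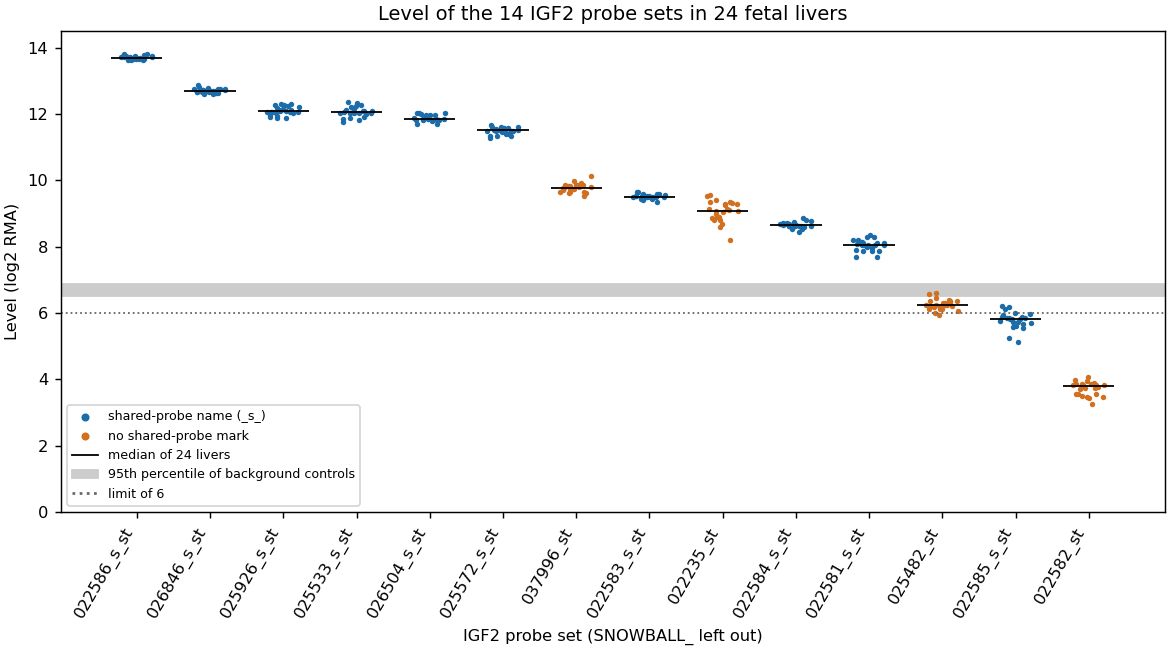
Levels (log2 RMA, vertical axis) of the 14 IGF2 probe sets (horizontal axis, highest mean first) in 24 fetal livers, 1 point per liver, with a bar at the median. The grey band is the range over arrays of the 95th percentile of background controls, and 11 probe sets lie above it in every liver while 3 lie below or reach only into it.

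The highest signal came from SNOWBALL_022586_s_st, with a lowest level of 13.63, a median of 13.70 and a highest of 13.81 over the 24 livers, a span of only 1.13-fold. It was the strongest or second strongest of all probe sets on every array, first on 9 of them, and never more than 0.157 log2 units below the top of the array. SNOWBALL_026846_s_st followed at 12.62, 12.71 and 12.87 (lowest, median and highest), a 1.19-fold span, and ranked between 22 and 39 on the arrays. These 2 probe sets had the smallest spans of the 14, while by interquartile range, at 0.0830 and 0.0807 log2, they were wider than SNOWBALL_022583_s_st at 0.0408.

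Another 4 probe sets, all with medians above 11, made up the rest of the strong signals. SNOWBALL_025926_s_st gave 11.87, 12.09 and 12.32 as lowest, median and highest level, SNOWBALL_025533_s_st gave 11.75, 12.05 and 12.37, SNOWBALL_026504_s_st gave 11.71, 11.86 and 12.04, and SNOWBALL_025572_s_st gave 11.27, 11.51 and 11.67. Their spans were between 1.25-fold and 1.53-fold. SNOWBALL_025533_s_st was lowest in fetus 283 and highest in fetus 376, whereas SNOWBALL_022586_s_st was lowest in fetus 376, so the liver that ranked first by 1 probe set ranked last by another.

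A middle group had medians between 8 and 10. SNOWBALL_037996_st ranged from 9.53 to 10.14 with a median of 9.78, SNOWBALL_022583_s_st from 9.35 to 9.65 with a median of 9.51, SNOWBALL_022584_s_st from 8.46 to 8.88 with a median of 8.66, and SNOWBALL_022581_s_st from 7.69 to 8.37 with a median of 8.06. SNOWBALL_022235_st stood out by its width, with a lowest level of 8.20 in fetus 274, a median of 9.09 and a highest of 9.55 in fetus 352. Its span of 2.54-fold was the only one above 2-fold among the 12 probe sets over the limit, and without its highest and lowest liver it was 1.89-fold.

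The remaining probe sets lay in or under the background. SNOWBALL_025482_st, at 5.94, 6.25 and 6.60, reached the limit in 23 arrays but the 95th percentile of the background controls in 0. SNOWBALL_022585_s_st, at 5.12, 5.82 and 6.23, reached the limit in 4 arrays, and SNOWBALL_022582_st, at 3.25, 3.80 and 4.06, in 0. No IGF2 probe set split the livers into separate clusters: in none did a gap between neighbouring livers that left 3 or more of them on either side exceed 0.25 of the range.

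The spans of the IGF2 probe sets narrowed as the signal rose. Over the 12 above the limit, Spearman's rho of mean level and span was -0.66 and Pearson's r was -0.51, given as a description because the points share the livers. The same narrowing ran through the array. Among the other 5856 probe sets over the limit the median span was 1.65-fold, with 1.69-fold at levels from 6 to 7, 1.57-fold from 10 to 11, 1.45-fold from 11 to 12, 1.32-fold from 12 to 13 and 1.16-fold among the 16 from 13 to 14. The median IGF2 span was 1.35-fold.

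Most IGF2 spans were also below the middle for their level, some of them only slightly. Set against the other probe sets within 0.25 log2 of its mean, 10 of the 12 were narrower than the median of that window. SNOWBALL_022583_s_st was narrower than 96.6% of the 145 in its window, SNOWBALL_026504_s_st than 96.8% of 31, and SNOWBALL_022584_s_st than 92.1% of 292. Others lay near the middle: SNOWBALL_022581_s_st was narrower than 54.7% of 503, SNOWBALL_025926_s_st than 60% of 30 and SNOWBALL_037996_st than 61.7% of 120. The window of SNOWBALL_022586_s_st held 4 other probe sets, of which 2 were wider. The exceptions were SNOWBALL_022235_st, where 7.43% of 202 were wider, and SNOWBALL_025533_s_st, where 22.6% of 31 were.

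**Figure D2:**
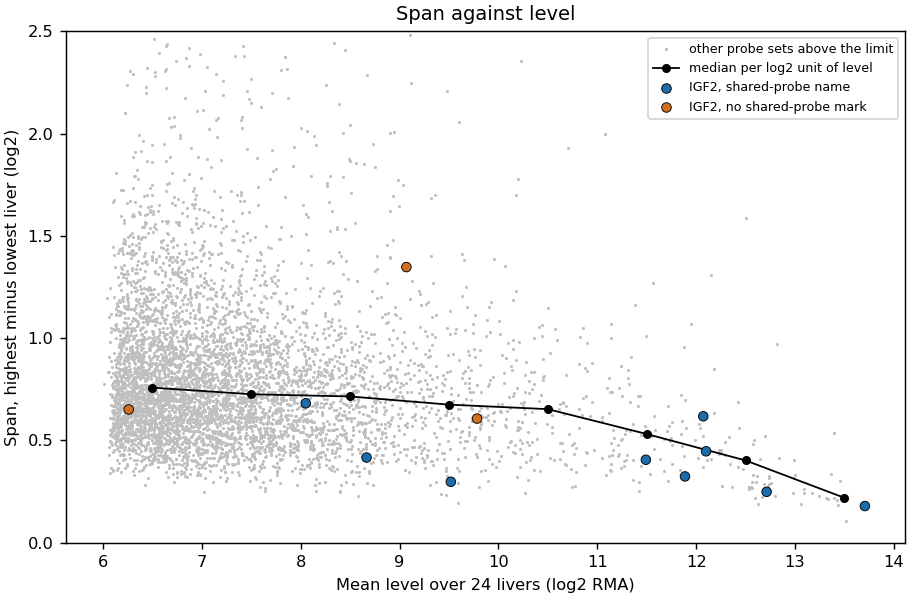
Span over the 24 livers (highest minus lowest, log2) against mean level (log2 RMA) for all probe sets above the limit, with the 12 IGF2 probe sets as large points and the median span in each log2 unit of level as a line. Spans shrink towards the top of the scale, 10 of the 12 IGF2 probe sets are narrower than the median of others at their level, and 61 other probe sets with spans over 2.5 lie outside the axis.

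Signs of signal saturation were looked for in SNOWBALL_022586_s_st: a smaller response than that of weaker probe sets, and a flattening at high levels. Its SD over the livers was 0.725 of the SD of the mean of the other 11 probe sets above the limit, and between 0.165 and 0.805 of the SD of each of them singly. The slope on that mean was 0.304 (95% interval 0.0128 to 0.595), so the interval lay below 1. Pearson's r was 0.419 (permutation p = 0.0410) and Spearman's rho 0.388 (permutation p = 0.0626), both two-sided. The relation was weaker without the 2 livers farthest from the median (r = 0.281), though leaving out outer livers narrows the range and can itself lower r. Without fetus 274 r was 0.379. Against single probe sets that varied with it, the slope was 0.636 (0.418 to 0.854) on SNOWBALL_026846_s_st and 0.574 (0.352 to 0.796) on SNOWBALL_022583_s_st. The slope is the product of r and the ratio of SDs, so a low r lowers it as well.

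The quadratic term gave no sign of flattening that could be told from 0, at 0.725 with an interval of -2.41 to 3.86. The mean of the other probe sets covered only 9.95 to 10.26, which left little range for such a curve. The smaller spread of the strongest probe set was shared with other strong genes. For 10 other symbols with at least 2 probe sets above the limit and a highest mean of at least 12, the SD of the strongest probe set was below that of the others in all 10, with a median ratio of 0.676, and 6 had a lower ratio than IGF2. Among them, TF, the gene of the iron carrier transferrin, had 0.377, TTR, the gene of the thyroxine carrier transthyretin, had 0.654, and APOB, the gene of the main lipoprotein protein, had 0.817. These symbols had 2 to 4 probe sets above the limit, against 12 for IGF2. A mean over more probe sets that vary apart has a smaller SD. The ratio of IGF2 and those of the other symbols are therefore not ranked like for like. What set these small spreads was not tested.

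Agreement between the IGF2 probe sets was partial. Over the 66 pairs of the 12 probe sets above the limit, the median Pearson r over livers was 0.286, and 15 pairs had an r below 0, down to -0.45. Most of those 15, and the lowest, were pairs with SNOWBALL_025482_st, which never exceeded the upper background. At a limit of 7, which that probe set did not pass, the median r was 0.366. Over all 91 pairs of the 14 the median was 0.186. A pair was called when r was above 0 with an adjusted p under 0.05, by a two-sided permutation test adjusted by Benjamini-Hochberg over all 61645 pairs of probe sets that share a symbol on the array. Of the IGF2 pairs 12 were called, where 2.48% of all same-symbol pairs were. Of those pairs 31375 belong to the single symbol LOC396781, and 0.0924% of them were called. Among pairs with both probe sets above the limit, 18.2% of the IGF2 pairs were called against 38.3% array-wide. With p-values adjusted over such pairs alone, 22 of the 66 were called, against 58.6% of the 1493 array-wide. Before adjustment 26 of the 66 had a p under 0.05.

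The agreement of IGF2 was in the lower part of the range seen for other genes. For 702 other symbols with at least 2 probe sets above the limit, the middle value of the median r was 0.562, and 137 of them (19.5%) had a lower one than IGF2. Symbols with many such probe sets varied. BAT3, with 10 above the limit, had a median r of 0.205 and 1 of 45 pairs called, and GNAS, an imprinted gene for a signalling G protein subunit, with 8, had 0.173 and 1 of 28. RBMX, which encodes an RNA binding protein, with 9, had 0.386 and 5 of 36, while FRYL, with 5, had 0.894 and all 10 pairs called.

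The 12 called IGF2 pairs joined 9 probe sets, and all 9 carried the mark _s_ in their names, which Affymetrix gives to probe sets whose probes match several transcripts. Of the 14, 10 have that mark. Of the 36 pairs in which both members had it and were above the limit, 12 were called and the median r was 0.459. Of the 27 pairs with 1 such member 0 were called, with a median r of 0.0296, and of the 3 pairs without the mark 0 were called, with a median of 0.00175. At an unadjusted p under 0.05 these counts were 21, 5 and 0, and with p-values adjusted over pairs above the limit alone the called pairs were 19, 3 and 0. The probe sets above the limit without the mark include SNOWBALL_025482_st, which never exceeded the upper background. Its median r with the others above the limit was -0.13. For SNOWBALL_037996_st and SNOWBALL_022235_st, the others without the mark, that median was 0.230 and 0.149, so the contrast rests in part on a background signal. Whether marked probe sets share probes was not tested.

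**Figure D3:**
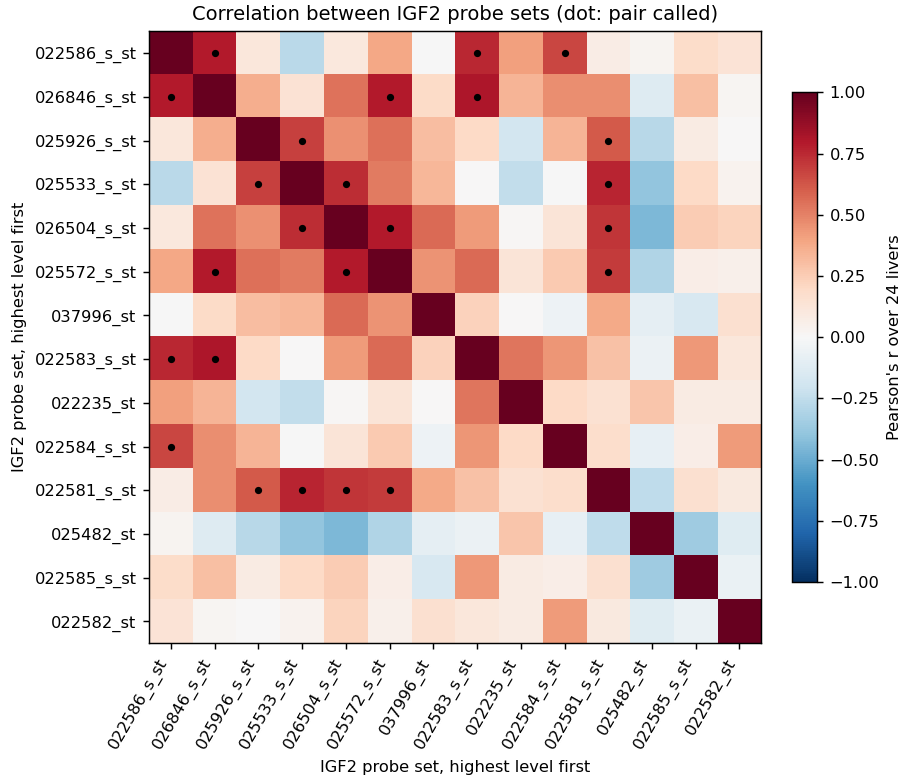
Pearson's r over 24 livers for each pair of the 14 IGF2 probe sets, ordered on both axes by mean level with the highest first, in colour from -1 to 1. Dots mark the 12 called pairs, all between probe sets with _s_ in the name. The row of SNOWBALL_025482_st, which never exceeded the upper background, is mostly below 0.

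Among the called pairs r lay between 0.617 and 0.807, rho between 0.583 and 0.808 and the adjusted p between 0.00127 and 0.0494. Leaving out, for each pair, the 2 livers farthest from the median of its higher-signal probe set gave an r of 0.587 to 0.766. Leaving out fetus 274 gave 0.652 to 0.821. With rho in place of r, 11 of the 12 were also called.

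Under the array-wide adjustment the called pairs fell along a chain rather than in 1 block. At 1 end SNOWBALL_022586_s_st varied with SNOWBALL_026846_s_st (r = 0.790), SNOWBALL_022583_s_st (r = 0.753) and SNOWBALL_022584_s_st (r = 0.666). At the other end SNOWBALL_025533_s_st varied with SNOWBALL_022581_s_st (r = 0.763), SNOWBALL_026504_s_st (r = 0.739) and SNOWBALL_025926_s_st (r = 0.686). SNOWBALL_025572_s_st joined the ends, with an r of 0.794 with SNOWBALL_026846_s_st and 0.793 with SNOWBALL_026504_s_st. Adjusted over pairs above the limit alone, the ends were also linked directly. SNOWBALL_026846_s_st was then called with SNOWBALL_026504_s_st (r = 0.546) and SNOWBALL_022581_s_st (r = 0.468). Between the ends themselves, SNOWBALL_022586_s_st and SNOWBALL_025533_s_st had an r of -0.27 and a rho of -0.30 (permutation p = 0.206 and 0.150, adjusted p = 0.774 and 0.736). These probe sets therefore did not rank the livers alike.

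**Figure D4:**
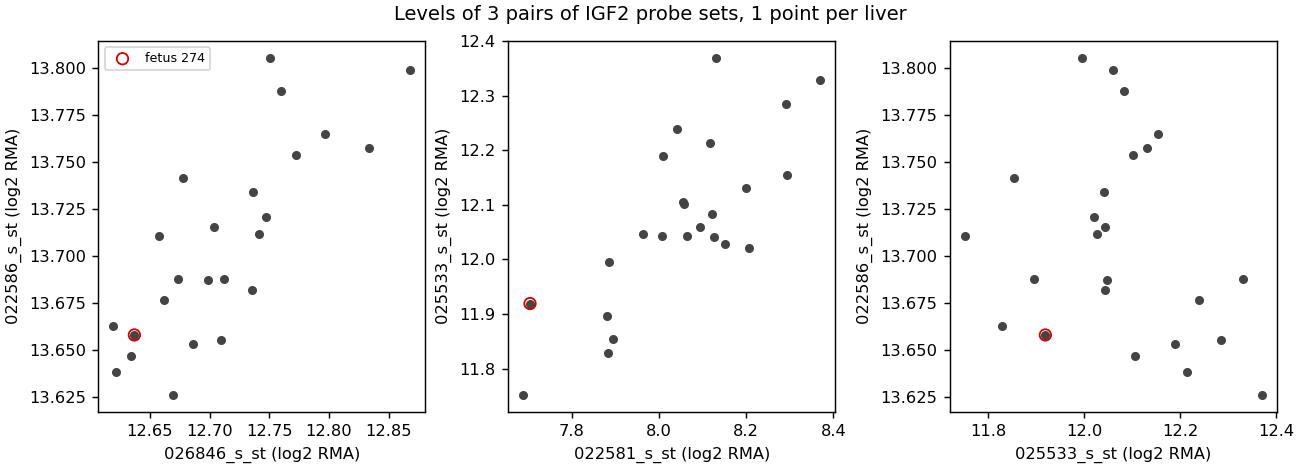
Levels (log2 RMA) of 3 pairs of IGF2 probe sets, 1 point per liver, with fetus 274 ringed. The left and middle panels show called pairs (r = 0.790 and 0.763), and the right panel shows the strongest probe set against SNOWBALL_025533_s_st (r = -0.27).

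The ends of the chain also differed in how they moved with the strongest other signals of the arrays. The mean of the 30 strongest probe sets other than those of IGF2 lay between 13.04 and 13.15 on the arrays. Over livers its r was 0.806 with SNOWBALL_025533_s_st, 0.674 with SNOWBALL_026504_s_st and 0.665 with SNOWBALL_022581_s_st, but -0.34 with SNOWBALL_022586_s_st. The difference was graded. At the first of these ends r was 0.371 with SNOWBALL_025926_s_st. At the other it was 0.163 with SNOWBALL_026846_s_st, -0.08 with SNOWBALL_022583_s_st and -0.26 with SNOWBALL_022584_s_st. After this mean was removed by regression, r in the called pairs ranged from 0.446 to 0.912. The lowest was SNOWBALL_025533_s_st with SNOWBALL_026504_s_st, which had been at 0.739. Between the ends, r of SNOWBALL_022586_s_st went from -0.27 to 0.0136 with SNOWBALL_025533_s_st. It went from 0.108 to 0.487 with SNOWBALL_026504_s_st and from 0.0708 to 0.424 with SNOWBALL_022581_s_st. The ends were thus less apart than before. The part of array-wide signal in these correlations was not tested further.

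Of the 3 probe sets above the limit without the mark, none was in a called pair under the array-wide adjustment. Adjusted over pairs above the limit alone, SNOWBALL_022235_st, the widest, was called with SNOWBALL_022583_s_st (r = 0.535, permutation p = 0.00752, adjusted p = 0.0157). SNOWBALL_037996_st was then called with SNOWBALL_026504_s_st (r = 0.567, permutation p = 0.00359, adjusted p = 0.00835) and with SNOWBALL_025572_s_st (r = 0.453, permutation p = 0.0261, adjusted p = 0.0453). SNOWBALL_037996_st had an r of 0.570 with the array median. SNOWBALL_025482_st, which never exceeded the upper background, had a median r of -0.13 with the other probe sets.

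As 1 value per liver, the IGF2 level was taken as the mean of the 12 probe sets above the limit. The probe sets were not scaled by their spread, and SNOWBALL_022235_st had the largest SD of the 12, 0.316. SNOWBALL_025482_st, which never exceeded the upper background, was included. The IGF2 level was 10.26 in fetus 274, 10.38 in fetus 320, which came next, 10.44 at the median and 10.55 in fetus 352, the highest. The whole span was 1.22-fold, and 1.13-fold without fetus 274. Fetus 274 was lowest in 4 of the 12 probe sets and among the 6 lowest livers in 10, but in SNOWBALL_025926_s_st 15 livers lay below it. Fetus 352 was highest in 5 of the 12. The second highest was 10.52 in fetus 303. Each liver was read by 1 array, so differences between neighbours in this order have no replicate error to be set against.

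The IGF2 level varied with the second principal component of the 5868 probe sets above the limit, which held 10.2% of the variance, with an r of -0.64, and -0.47 without fetus 274. Single IGF2 probe sets differed in this. Their r with that component was -0.61 for SNOWBALL_022235_st, the widest, and -0.50 for SNOWBALL_022581_s_st. It was between -0.36 and -0.15 for the probe sets with medians above 11, and -0.02 for SNOWBALL_025482_st. With the first component, which held 20.9%, r was 0.171. Fetuses 311 and 312 stood farthest out on the first component. Fetus 311 also had the highest mean level of the 4 granulocyte markers, 10.40, where the median liver had 7.52. Its IGF2 level was 10.39.

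Few genes varied with the IGF2 level strongly enough to pass the test, and none was called without fetus 274. Of 5856 other probe sets above the limit, 16 were called by limma at a Benjamini-Hochberg adjusted p under 0.05, which is 0.273%, 14 with a higher and 2 with a lower level where IGF2 was higher. At an unadjusted p under 0.05 there were 838, or 14.3%. Without fetus 274 limma called 0, with 598 at an unadjusted p under 0.05 and a lowest adjusted p of 0.125. Without fetuses 311 and 312 it called 79, including all 16.

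Of the 16, 14 have a gene name. APOC2, which encodes the apolipoprotein that activates lipoprotein lipase, had 8.62, 9.14 and 9.60 as lowest, median and highest level, and was lowest in fetus 274. Its r with the IGF2 level was 0.776 and rho 0.712 (permutation p = 3e-05 and 0.00020, limma adjusted p = 0.0199), and r was 0.767 without the 2 farthest livers and 0.680 without fetus 274 (adjusted p = 0.154). SREBF1, a transcription factor gene of fatty acid synthesis, ranged from 5.71 to 7.28 around 6.61, with an r of 0.674 and a rho of 0.519 (permutation p = 0.00035 and 0.0101, limma adjusted p = 0.0478), and an r of 0.504 without fetus 274 (adjusted p = 0.299). PECI, for a peroxisomal enoyl-CoA isomerase, had an r of 0.751, EPHX2, for soluble epoxide hydrolase, 0.701, and SLC7A7, for a subunit of a transporter of cationic amino acids, 0.757.

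ATIC, which encodes the enzyme of the last steps of purine synthesis, ranged from 6.43 to 7.27 around 6.90. Its r was 0.718 and rho 0.804 (permutation p = 0.00012 and 1e-05, the smallest that 100000 permutations can give, limma adjusted p = 0.0460), and r was 0.761 without fetus 274 (adjusted p = 0.125). The other genes that rose with IGF2 were FBXO17 (r = 0.790), ZCCHC24 (r = 0.767), DGKK (r = 0.748), ESRP2 (r = 0.740), SIK3 (r = 0.710) and IGSF11 (r = 0.701). Without fetus 274 only ATIC and IGSF11, at 0.717, kept an r of at least 0.7 among the 16.

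The 2 called in the other direction were ITGAV and ZDHHC20. ITGAV, the integrin alpha V gene, had 5.83, 6.43 and 7.57 as lowest, median and highest level, the highest in fetus 274, with an r of -0.73 and a rho of -0.67 (permutation p = 6e-05 and 0.00053, limma adjusted p = 0.0199). ZDHHC20, for a palmitoyltransferase, ranged from 5.98 to 7.82 around 7.12, with an r of -0.68 and a rho of -0.66 (permutation p = 0.00022 and 0.00068, limma adjusted p = 0.0460). Without fetus 274 the r values were -0.63 and -0.62. ANAPC1, which encodes a subunit of the anaphase-promoting complex, had an r of -0.73 with a limma adjusted p of 0.0603 and was not called, and r was -0.75 without fetus 274. MCM7, for a subunit of the replicative helicase, had an r of -0.69 and ANXA4, for an annexin, of -0.64 (limma adjusted p = 0.0560 and 0.0587), and neither was called. The rest of the 10 genes with the most negative limma statistic were not called either, with limma adjusted p from 0.0612 to 0.116. They were MAN1A1 (r = -0.67), STXBP3 (r = -0.65), CRLF3 (r = -0.63), ASXL2 (r = -0.61) and TCP11L2 (r = -0.60).

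**Figure D5:**
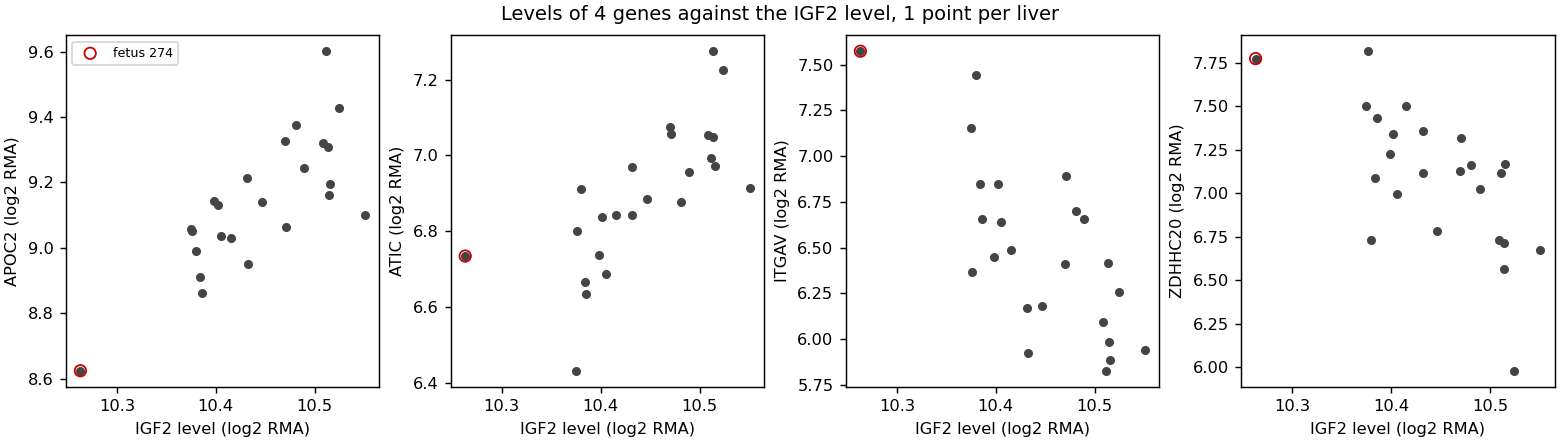
Levels (log2 RMA, vertical axes) of APOC2, ATIC, ITGAV and ZDHHC20, chosen as called genes of both directions, against the IGF2 level (mean of 12 probe sets, log2 RMA, horizontal axes), 1 point per liver, with fetus 274 ringed. APOC2 and ATIC rise and ITGAV and ZDHHC20 fall along the IGF2 level, and fetus 274 lies at the far left of each panel.

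The genes found depended on which IGF2 probe set stood for the gene. Taken singly, 11 of the 14 probe sets gave 0 called by limma, with 240 to 828 at an unadjusted p under 0.05, among them SNOWBALL_022586_s_st, with 300 at an unadjusted p under 0.05, and SNOWBALL_022235_st, with 524. SNOWBALL_025926_s_st gave 36 and SNOWBALL_025533_s_st gave 21, of which 1 and 0 were among the 16, and SNOWBALL_022585_s_st gave 1.

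Other genes of the IGF system were set beside the IGF2 level in the same fit. Of 23 genes listed, all with a probe set, 11 were above the limit. Limma called 0 of the 11, where 0.273% of all probe sets were called, and 1 had an unadjusted p under 0.05, where 14.3% of all did, so counts this small say little about the list. The median r was 0.0276, where that over all probe sets above the limit was 0.0203, and it was 0.236 without fetus 274. Of the receptors, IGF1R, which signals for both growth factors, ranged from 6.77 to 7.39 (r = -0.12), INSR, the insulin receptor, from 7.21 to 7.82 (r = 0.279), and IGF2R, which clears IGF2, from 6.15 to 6.66 (r = -0.08, and 0.236 without fetus 274).

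Of the genes of binding proteins, which carry IGF2 in plasma, IGFBP1 and IGFBP2 spread more over the livers than any IGF2 probe set. IGFBP1 had 7.69, 10.68 and 12.12 as lowest, median and highest level, a 21.6-fold span, with an r of 0.0826, and 0.309 without fetus 274. IGFBP2 ranged from 7.66 to 9.94, a 4.87-fold span (r = 0.112, and 0.329 without fetus 274). IGFBP3 ranged from 6.90 to 7.90 (r = 0.120, and -0.04 without fetus 274) and IGFBP7 from 6.25 to 6.83 (r = -0.02). IGFBP4 ranged from 6.67 to 7.40 and had the most negative r of the list, -0.46 (limma adjusted p = 0.272).

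IRS2, an adaptor of both receptors, ranged from 6.76 to 7.77 (r = 0.0276). Of the proteins that bind IGF2 mRNA, IGF2BP2 ranged from 5.81 to 6.41 (r = -0.09) and IGF2BP3 from 6.42 to 6.84 (r = 0.124). IGF2BP1 was below the limit and outside the test, at 5.67, 6.07 and 6.37. Its r with the IGF2 level was 0.677, and 0.577 without fetus 274, but it was above the 95th percentile of background controls on 0 arrays, and with the limit lowered to 5 its limma adjusted p was 0.0914. The weaker IGF2BP1 probe sets, with means of 3.51 to 4.17, had an r of 0.193, -0.15 and 0.234. IGF1, the other insulin-like growth factor, was at 2.66, 4.80 and 5.43 and also below the limit.

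Imprinted genes and regulators of IGF2 were mostly too weak to read. Of 20 listed, 14 had a named probe set, 2 were above the limit and 0 were called, against 0.273% of all probe sets, so the count says little. DLK1, a paternally expressed gene of fetal growth, ranged from 5.69 to 7.75 (r = -0.01), and SGCE, a paternally expressed sarcoglycan gene, from 7.55 to 8.30 (r = 0.443, limma adjusted p = 0.307). INS, the insulin gene, which lies next to IGF2 in the RefSeq order of genes on Sscrofa11.1, was at 4.20, 4.86 and 5.26, under the limit. CD81, further along in that order, ranged from 6.62 to 6.94 (r = 0.389).

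The tissue read as fetal liver with its blood-forming cells. Of 19 named hepatocyte markers 17 were above the limit, and of 13 named erythroid markers 11. No marker of any list was called by limma, against 0.273% of all probe sets. The signs of r are given as a description, with no test, beside 53.1% above 0 over all probe sets above the limit. The median r was 0.361 over the 17 hepatocyte markers, with 16 above 0, and 0.283 without fetus 274, with 13 above 0, while rho was above 0 for 12. RBP4, for the plasma retinol carrier, had the highest r of these, 0.596 (adjusted p = 0.158), and APOB the lowest, -0.20. The median r of 8 stellate and mesenchymal markers was 0.370, all above 0, and 0.154 without fetus 274, with 7 above 0, FBLN1, for a matrix glycoprotein, being at 0.571 and VIM, for vimentin, at 0.0581.

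Erythroid and cell cycle genes mostly had an r below 0. The median r was -0.33 over 11 erythroid markers, with 0 above 0, and -0.19 without fetus 274, the ends being TFRC, the transferrin receptor gene, at -0.54 (adjusted p = 0.158) and HBZ, for zeta globin, at -0.01. It was -0.37 over 12 cell cycle genes, with 0 above 0, and -0.30 without fetus 274, with 1 above 0, the ends being CDK1, for the mitotic kinase, at -0.58 (adjusted p = 0.124) and MCM3 at -0.12. The 6 endothelial markers had a median r of 0.127, and 0.240 without fetus 274, from TEK at 0.308 to LYVE1 at -0.11. The 3 macrophage markers had 0.0928, but -0.09 without fetus 274, from C1QC at 0.158 to TYROBP at -0.12. The 4 granulocyte markers had -0.22, and -0.32 without fetus 274, from MPO at -0.17 to S100A8 at -0.29.

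As means over the markers above the limit, the hepatocyte level ran from 11.18 in fetus 274 to 11.50, the erythroid level from 9.10 to 9.78, the stellate and mesenchymal level from 6.67 in fetus 274 to 8.47, and the cell cycle level from 7.07 to 7.70. Fetus 274 had the lowest hepatocyte, mesenchymal and macrophage levels, the last at 7.76, and the highest mean level of the IGF axis genes, 7.68, as well as the lowest IGF2 level. It also lay farthest out on the second principal component. In bulk tissue fewer cells of a type and less RNA per cell cannot be told apart, and the part of cell make-up in the IGF2 level was not tested.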

How the data were processed

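Liver RNA of 24 fetuses was hybridized to 1 Snowball array each. The authors used GCOS 1.1.1 per the submitters' notes, and the deposited values are log2 levels made by the authors with RMA. They were used as deposited. No coordinates are given, since the genome build of the array is not given in the sources read, and probe sequences were not used here. The platform annotation gives 26426 probe sets a symbol. Arrays carry no read depth, and their number limits the precision.

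No sample was assigned to a group. The IGF2 probe sets, the tests and the gene lists were chosen with earlier results of these data known. A probe set passed when its level was at least 6 in at least 18 arrays. Pairs of probe sets were tested by 100000 permutations of Pearson's r. Each passing probe set was fitted on the IGF2 level with limma (lmFit, eBayes), and both steps were tested on simulated data. Per gene the probe set with the highest mean was used. Named are the IGF2 probe sets, the 10 genes at either end of the limma statistic, IGF axis and imprinted genes, and the extremes of each marker list. Single genes called beyond these, the weak probe sets of IGF2BP1, IGF1, INS and CD81, and the examples of other symbols were chosen after their values were seen. Alternatives were other limits, rho, aligned medians, other summaries of IGF2, left-out livers and principal components as covariates. Tools were R 4.3.3 with limma 3.58.1, and Python 3.11.15 with scipy 1.17.1, numpy 2.4.6, matplotlib 3.10.9 and pandas 2.3.3.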

Additional observations from a re-analysis of the deposited data

How the results depend on the processing

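The number of IGF2 probe sets above the limit was 11 to 13 under the other limits, and the median r between them was 0.186 to 0.366, against 12 and 0.286 as reported. The count of called pairs was 11 or 12 under other settings but 22 when adjusted over probe sets above the limit only. The count of probe sets called with the IGF2 level was the least stable, 16 as reported. It was 12 when the limit was 5, 14 when it was 7, and 14 by Spearman's rho, of which 6, 7 and 6 were among the 16. At a limit of 7 only those 7 of the 16 were still tested, and all of them stayed called. The count of called probe sets also moved with the other settings. This count was 0 with the strongest IGF2 probe set, with the one of largest SD, with no limit and without fetus 274, and 2 with the mean of all 14 probe sets. It was 51 with aligned array medians, 79 without the 2 arrays farthest out and 38 with the first principal component as a covariate. With the second component as a covariate, or the mean of standardized probe sets, both chosen after seeing the data, it was 0. The setting with no limit both took the mean of all 14 probe sets and tested 47831 others. Causes were not tested. The median span of the 14 probe sets was 0.527 log2, and 0.153 as an interquartile range, which leaves out the outer livers by construction. The slope of the strongest probe set was 0.304, and 0.328 without fetus 274 with an interval of -0.04 to 0.691 that includes 0, and the ratio of SDs in its place was 0.725. Of 74 list genes above the limit, 13 changed the sign of r without fetus 274, among them IGF2R, IGFBP3, DLK1, VIM, LYVE1, C1QC and MCM3, and so did the macrophage median. No paired analysis was possible because the labels give no groups or replicate numbers. Levels near 6 overlap with the upper background, spans at the top of the scale are small, and array number and sibling livers limit every p-value.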
